A study of Mus musculus with 16 samples.

Results

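The expression of 10 glucocorticoid-responsive genes was examined in the left atrium of old female mice: Fkbp5, Fam107a, Tsc22d3, Sgk1, Zbtb16, Nr3c1, Mt1, Mt2, Klf9 and Errfi1. They were selected by symbol from the 24958 named gene rows of the table, by a rule that uses the contrast of ovariectomized (Ovx) mice with controls. Earlier results in the other contrasts were also known when the genes were chosen. All 10 had a mean value of at least 10 and belonged to the 14258 genes tested. The mice were C57BL6/J females, all 24 months old at tissue collection, in 4 groups with 4 libraries each, every library from the left atrium of the heart. Control mice (Ctrl) had their ovaries and received no treatment. AngII mice had their ovaries and received angiotensin II, a hypertensive peptide hormone, by subcutaneous minipump for 4 weeks. Ovx mice were ovariectomized at 12 months of age and received no infusion, and Ovx + AngII mice had both the surgery and the infusion. Sham operation did not include a vehicle-filled pump, so the pump is not separated from AngII in this design.

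Glucocorticoids are adrenal steroids that cross the cell membrane and bind the glucocorticoid receptor, which waits in the cytoplasm in a complex with HSP90 and its co-chaperones. The bound receptor moves to the nucleus, attaches to response elements in DNA and raises or lowers transcription of nearby genes. In the heart, these steroids act on cardiomyocytes as well as on vessels, fibroblasts and leukocytes, and angiotensin II itself stimulates the adrenal release of the related steroid aldosterone. Nr3c1 encodes the receptor and Fkbp5 a co-chaperone that lowers its affinity for hormone and is itself strongly induced by it. Tsc22d3 (GILZ), Zbtb16 (PLZF) and Klf9 encode transcriptional regulators induced by the hormone. Sgk1 is a kinase that both glucocorticoids and mineralocorticoids induce, Errfi1 (MIG6) is a feedback inhibitor of the EGF receptor, Mt1 and Mt2 are metallothioneins that bind zinc and copper, and Fam107a encodes an actin-associated protein.

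Promoter sequences were examined first. The genes were chosen as glucocorticoid-responsive, so a response element close to a start is not independent of that choice, and its share is a description. The windows were the 250 bases before each annotated transcript start, taken from RefSeq on build GRCm38.p6, the same assembly as mm10. Of the 10 genes, 8 were matched, with 18 windows. The core of the glucocorticoid response element was searched as GNACANNNTGTNC, which reads alike on both strands, and was found before a start of 3 of the 8 genes (37.5%), against 119 of 27025 genes (0.44%) over the whole promoter table. Counted by window, since genes with more starts had more windows, the core stood in 4 of 18 (22.2%), against 127 of 32851 (0.387%). Among 26 other glucocorticoid-induced genes with a window, 3 (11.5%) held it, one of which was Map3k6, a stress-activated kinase whose values are described further on. The 4 stretches shown here let the elements be compared, with the matched core in capitals and 8 bases on each side in lower case. They lie at chr8:94178987-94179015 (plus strand, Mt1), chr10:21993694-21993722 (plus strand, Sgk1), chr14:8309877-8309905 (minus strand, Fam107a) and chr4:133240629-133240657 (plus strand, Map3k6).
Mt1: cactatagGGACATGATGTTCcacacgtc
Sgk1: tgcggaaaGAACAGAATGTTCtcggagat
Fam107a: ggtggcttGGACATGGTGTTCtgagtctc
Map3k6: gaatagggGCACAGGCTGTTCcggaagtg

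The core ended 82 bases before the start in Mt1, 106 bases before it in Fam107a, 169 in Map3k6 and 176 in Sgk1. In Sgk1, 1 of 6 annotated starts had the core, and in Fam107a 2 of 3 starts, which lie next to each other and share the same element. The letters AGAACA, a single arm of the element searched on both strands, stood before a start of Fam107a, Sgk1 and Tsc22d3, and in 18.2% of all genes. In Sgk1 and Fam107a a match overlaps the core. The metal response core, searched as TGCACNC and TGCGCNC on both strands, was found 3 times before Mt2, which is printed because no other member had more than 1 such match (chr8:94172368-94172617, plus strand, capitals mark the matches on either strand).
Mt2: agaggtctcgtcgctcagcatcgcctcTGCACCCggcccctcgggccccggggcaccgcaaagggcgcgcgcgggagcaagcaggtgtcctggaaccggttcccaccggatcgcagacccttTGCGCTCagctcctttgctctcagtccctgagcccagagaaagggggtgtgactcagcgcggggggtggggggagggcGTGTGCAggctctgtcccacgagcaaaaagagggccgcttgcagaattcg

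The same core stood once before Mt1 and once before Fam107a. Over the whole table, TGCACNC was found in 11.8% and TGCGCNC in 14% of genes, so a single match is common. Mt2 and Mt1 are neighbours on chromosome 8, at 94172618 to 94173567 and 94178883 to 94180327. A window precedes an annotated transcript start and can lie inside the outer bounds of its gene. The Mt1 window ends at 94179088, after the first annotated base of Mt1, and the Sgk1 and Fam107a windows that hold the core lie within those genes. A match in a window is a description of letters, and no match says only that these letters are not in that window.

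The libraries were compared on a common scale, since the table carried separate scales for the ovary-intact and the ovariectomized side. Median-of-ratios factors were 1.054 to 1.065 on the intact side and 0.941 to 0.946 on the Ovx side, and every level given here is a normalised read count divided by these factors. All 6 atrial cardiomyocyte markers were measured, with summed levels of 1181270 to 1745710, whereas the 3 ventricular markers summed to 26.3 to 76.5. Ctrl replicate 4 stood apart, with a mean correlation of 0.945 with its group against 0.963 to 0.980 in the other libraries. Its 5 macrophage markers summed to 30838, against 9606 to 17634 elsewhere, and 0.55% of its total came from haemoglobin genes, a share exceeded by 0.789% in AngII replicate 4 and between 0.0332% and 0.194% in the other 14 libraries. The upper heading row of the table also places this library under AngII, although its title calls it a control. It is treated as a control, and in each comparison that uses the controls, values without it are also given for some of the genes. The 5 smooth muscle and pericyte markers summed to 8482 to 10699 in the Ctrl and Ovx libraries and to 11151 to 14750 in the AngII and Ovx + AngII libraries, and the part of this shift in the results was not tested. In whole tissue, fewer cells of a type and less RNA per cell cannot be told apart. The study made its atrial libraries from 4 samples in each group. Neither it nor the labels state that these samples came from separate animals. The p-values therefore measure only the spread between these samples, which may be technical.

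**Figure D1:**
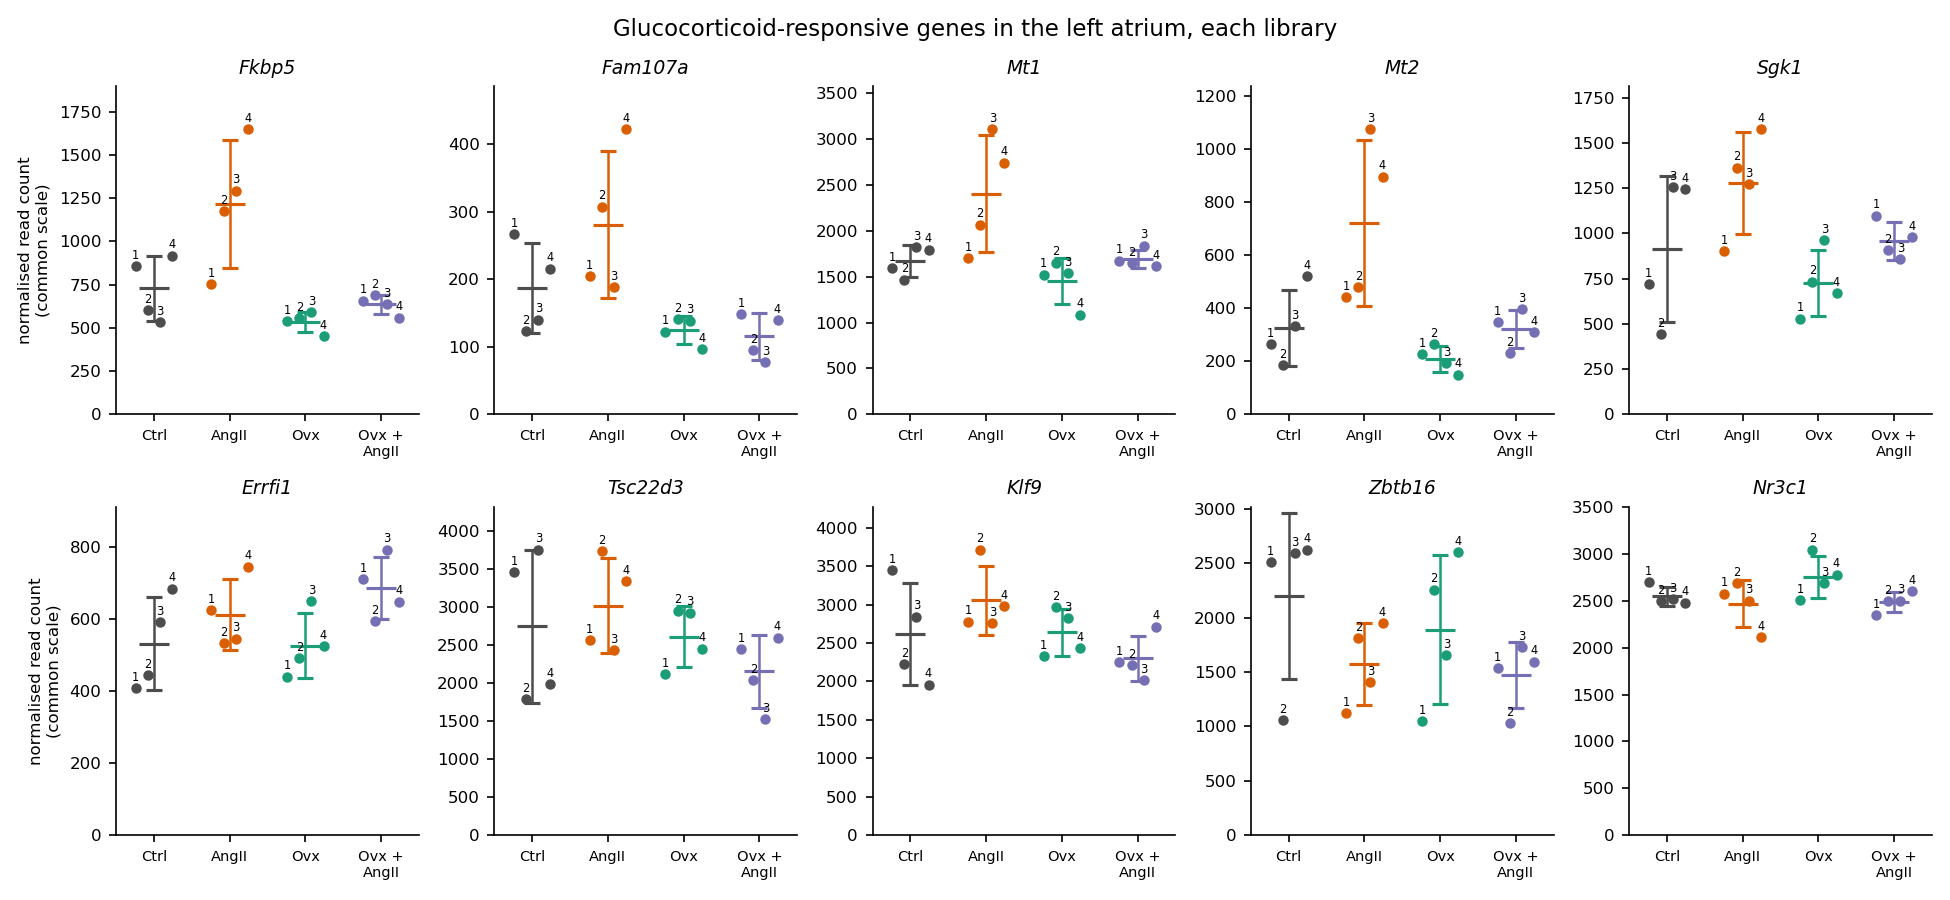
Normalised read counts on the common scale (y axis, from 0) of the 10 genes in each of the 16 libraries. Points are libraries numbered by replicate, and the horizontal mark and bar are the mean ± SD of the 4 libraries of a group. AngII libraries reach the highest level of Fkbp5 (1652), Fam107a (423), Mt1 (3113) and Mt2 (1075). The Ovx and Ovx + AngII groups overlap in each of these genes, and their libraries span 149.6 to 397 in Mt2.

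The first comparison asked how AngII changed these genes in mice with ovaries. Fkbp5, Mt2 and Mt1 were measured higher after AngII, at 1.65-, 2.20- and 1.41-fold when the fitted log2 differences are put back on the linear scale, and 8 of the 10 genes had a log2 difference above 0. None of the 10 passed an adjusted p of 0.05 (limma with Benjamini-Hochberg adjustment over all genes), where 2.8% of all genes did, and none was called, which also asks for a log2 difference of 1 or more in either direction, against 0.554% of all genes. At an unadjusted p under 0.05, 3 of 10 were higher and none was lower, against 9.05% of all genes that were higher at that level. In none did all AngII libraries lie above all control libraries, which 3.78% of all genes showed. The median log2 difference of the 10 genes was 0.37, against -0.01 over all genes tested. The 10 genes were chosen with earlier results of this contrast known, and its control libraries also enter the contrast of the rule. These counts are therefore no independent evidence of a response.

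Fkbp5 was measured at 856, 605, 535 and 917 in control replicates 1 to 4. In the AngII group it was 753, 1174, 1294 and 1652. AngII replicates 2 to 4 were above every control, and AngII replicate 1 lay among the controls. The means were 728 ± 187 and 1218 ± 371 (SD, n = 4 each), a log2 difference of 0.72 ± 0.20 (SE) with a limma adjusted p of 0.0631. The exact permutation test over the 8 libraries gave p = 0.0857, where the smallest p this design allows is 0.0286. Without Ctrl replicate 4 the difference was 0.85 ± 0.20 with a limma adjusted p of 0.0170, in a fit in which 10.4% of all genes passed. It also passed without AngII replicate 1, where 1.09% of all genes passed, and not without any other single library.

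Mt2 showed the largest difference of the 10 genes. Control libraries held 265, 186, 333 and 521, and AngII libraries 441, 477, 1075 and 894. Ctrl replicate 4 lay above AngII replicates 1 and 2, so that the groups overlapped through this one control. The log2 difference was 1.14 ± 0.32 with a limma adjusted p of 0.0625. Without Ctrl replicate 4 it was 1.40 ± 0.30 with a limma adjusted p of 0.00953. Mt2 was called in that fit, as were 1.54% of all genes. Mt1 followed with 1592, 1469, 1826 and 1796 in controls and 1706, 2068, 3113 and 2743 after AngII. Its log2 difference was 0.49 ± 0.16, with a limma adjusted p of 0.104. Without AngII replicate 1 it passed, as did 1.09% of all genes. AngII replicates 3 and 4 were the highest of all 16 libraries for both metallothioneins. The list of 7 other metal response genes tested, among them the zinc exporter Slc30a1 and Hmox1, had no gene past the adjusted p in this comparison, and its median log2 difference was 0.05.

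Fam107a was measured at 267, 124, 140.1 and 216 in controls and at 205, 308, 188 and 423 after AngII. The groups overlapped widely and the log2 difference was 0.58 ± 0.29 with a limma adjusted p of 0.296. Sgk1 had 719.5, 441, 1255 and 1243 in controls and 901, 1364, 1269.6 and 1577 after AngII. Controls of Sgk1 fell into a lower and a higher pair, the higher pair reaching the AngII range. Its log2 difference was 0.58 ± 0.27 with a limma adjusted p of 0.273. Tsc22d3, Klf9 and Errfi1 differed by 0.19 to 0.25 on the log2 scale, none with an unadjusted p under 0.05.

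Zbtb16 and Nr3c1 were the only 2 of the 10 genes with a log2 difference below 0. Zbtb16 was measured at 2509, 1058, 2595 and 2626 in controls and at 1124, 1814, 1404 and 1952 after AngII. Apart from Ctrl replicate 2, the controls were all above the AngII libraries, and the log2 difference of -0.42 ± 0.31 had a limma adjusted p of 0.497. The receptor gene Nr3c1 lay between 2484 and 2703 in controls and between 2118 and 2693 after AngII, with a log2 difference of -0.05 ± 0.08. Its spread within groups, 0.105 on the log2 scale, was smaller than the median of 0.171 over the 12372 genes with a mean of at least 50. Mt2 (0.508) and Zbtb16 (0.498) had spreads larger than those of 94.9% and 94.5% of these genes, so that small differences in them could not be detected with 4 libraries a group.

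Other genes of the pathway gave a mixed picture in this comparison. Of 28 other glucocorticoid-induced genes tested, 2 passed the adjusted p, both higher, and the median log2 difference was -0.03. These were Anxa1, the anti-inflammatory protein annexin A1 (0.56 ± 0.07, limma adjusted p = 0.00204), and the kinase gene Map3k6 (0.63 ± 0.12, adjusted p = 0.0142). Map3k6 had 474, 349, 368 and 432 in controls and 539, 666, 609 and 685 after AngII, with no overlap. Of 20 genes for the receptor's co-chaperones, cofactors and steroid enzymes, 3 passed. Fkbp4, the co-chaperone that takes the place of the Fkbp5 protein when hormone binds, fell from 5289, 5999, 5461 and 4808 to 2817, 3824, 3632 and 4382. Its log2 difference was -0.57 ± 0.11 with a limma adjusted p of 0.0144, the direction opposite to the Fkbp5 values. Stip1 (HOP), which links HSP70 and HSP90, fell by 0.41 on the log2 scale, and Abcb1b, a membrane pump that exports steroids among other compounds, rose by 0.62.

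Anxa1, Map3k6 and Fkbp4 passed with any single library left out, which Stip1 and Abcb1b did not. Abcb1b had an adjusted p of 0.056 at most over these fits, losing its call without Ctrl replicate 1 or 3 or without AngII replicate 1 or 3. For Stip1 the highest was 0.101, and its call was lost without Ctrl replicate 1 or 2, without AngII replicate 1 or 3, or without Ovx replicate 4. None of 11 glucocorticoid-repressed genes, 14 genes of the EGF receptor pathway, 13 immediate early genes or 16 circadian clock genes passed, and of 10 close relatives of the members only Fkbp4 did. In the EGF receptor pathway, 4 of the 14 were higher at an unadjusted p under 0.05, against 9.05% of all genes, and 1 was lower. All 4 lay near the threshold. They were the ligand genes Nrg1 (1.94 ± 0.53, limma adjusted p = 0.0596), Hbegf (0.95 ± 0.27, 0.0669) and Ereg (1.98 ± 0.57, 0.0708), and the inhibitor gene Spry1 (0.39 ± 0.11, 0.0737). Ereg was measured at low levels, with means of 14.4 in controls and 50.8 after AngII. The pathway lists were chosen with earlier results of every contrast known. Their counts, here and in the later comparisons, are therefore no independent evidence of a response.

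**Figure D2:**
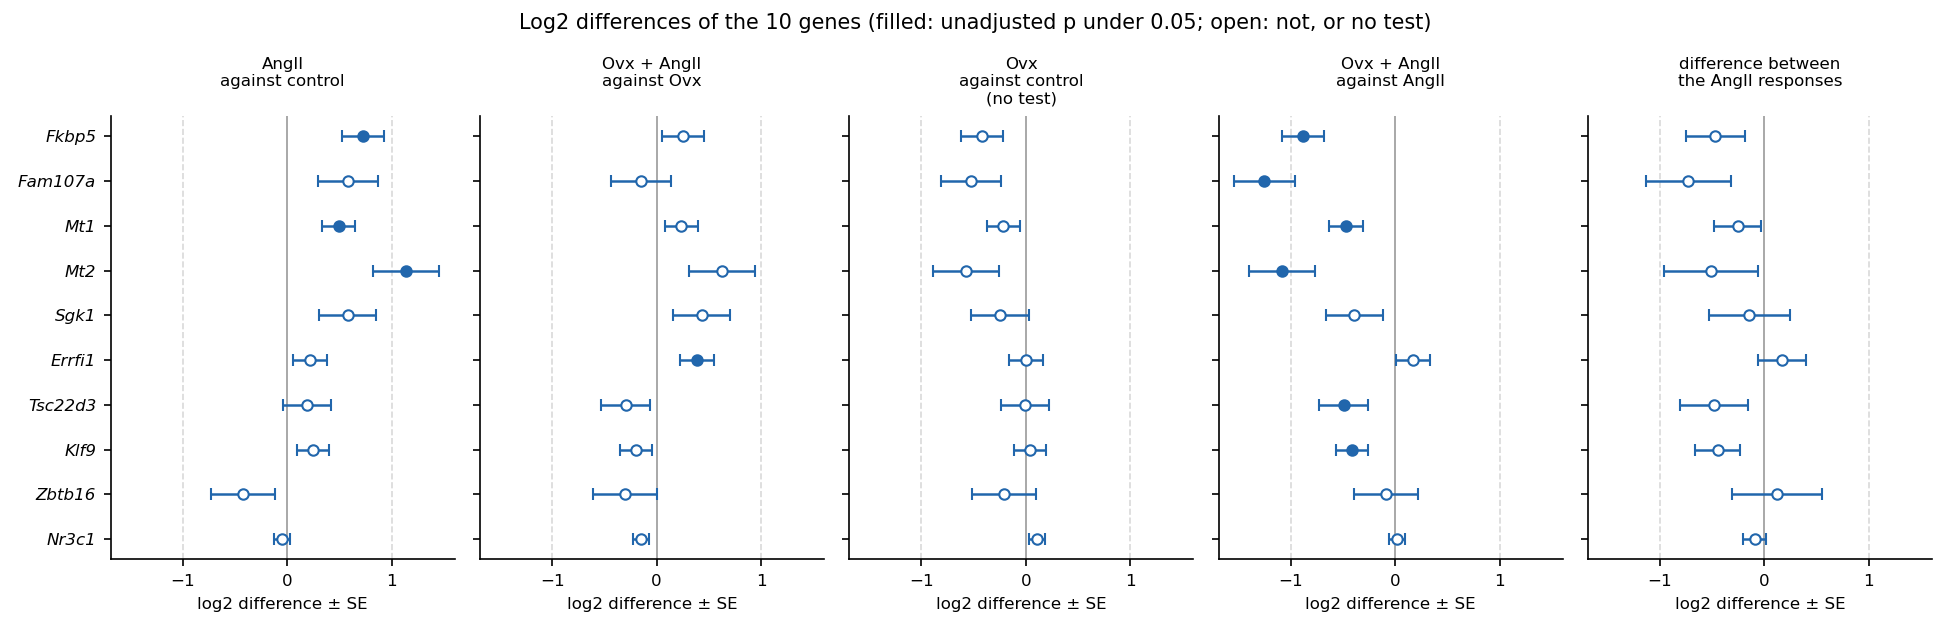
Log2 differences ± SE (x axis) of the 10 genes (y axis) in 4 comparisons and in the difference between the AngII responses, on the common scale. Filled points have an unadjusted limma p under 0.05, open points do not or belong to the contrast without a test, and dashed lines mark a log2 difference of 1 in either direction. Fkbp5, Mt1 and Mt2 lie right of 0 under AngII against control and left of 0 under Ovx + AngII against AngII.

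The second comparison addressed the same infusion in ovariectomized mice. None of the 10 passed the adjusted p in Ovx + AngII against Ovx, where 10.2% of all genes passed and 2.32% were called. At an unadjusted p under 0.05, Errfi1 alone was higher, against 13.2% of all genes higher at that level, and in none were all Ovx + AngII libraries above all Ovx libraries, against 11.8% of all genes. Of the 10 genes, 5 were above and 5 below 0, with a median log2 difference of 0.05 against -0.01 over all genes.

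Errfi1 was measured at 439.7, 490.5, 649 and 523 in Ovx mice and at 709.8, 593, 792 and 647 in Ovx + AngII mice. One Ovx library, replicate 3, lay within the range of the infused mice. The log2 difference was 0.39 ± 0.16 with a limma adjusted p of 0.149. Mt2 had 226, 265, 192 and 149.6 in Ovx mice and 348, 231, 397 and 309.5 with AngII. Its log2 difference of 0.63 ± 0.32 had a limma adjusted p of 0.234, and the exact permutation p was 0.0571. When the fit was restricted to these 2 groups, Mt2 (adjusted p = 0.0424) and Errfi1 (0.0470) passed in limma, as did 17.5% of all genes. Fkbp5 had 541, 556, 589.5 and 451 without and 657, 689.8, 638 and 559 with AngII. All infused libraries but replicate 4 were above every Ovx library, and the log2 difference was 0.25 ± 0.20 with a limma adjusted p of 0.477.

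Tsc22d3, Klf9, Zbtb16, Fam107a and Nr3c1 had log2 differences between -0.31 and -0.15 in ovariectomized mice, all with limma adjusted p of 0.2545 or more. Sgk1 (0.43) and Mt1 (0.24) were above 0, without passing. Sgk1 was 529, 733, 964 and 670.5 in Ovx mice and 1097, 906, 856 and 977 with AngII, and the groups overlapped through Ovx replicate 3 alone.

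Of the wider lists, the glucocorticoid-repressed, metal response and immediate early genes had none past the adjusted p here (0 of 11, 7 and 13). The EGF receptor pathway, to which Errfi1 belongs, had 5 genes higher and 2 lower of 14 tested, and the other glucocorticoid-induced genes 3 higher and 1 lower of 28, beside the 10.2% of all genes. Spry1 (0.79 ± 0.11, limma adjusted p = 0.000671), a feedback inhibitor of receptor tyrosine kinases, the ligand genes Hbegf (1.42 ± 0.27) and Nrg1 (2.65 ± 0.53), and the receptor gene Erbb4 (-0.80 ± 0.16) were the 4 with the smallest p. Hbegf rose from 128, 133, 119.6 and 89.7 to 308, 242, 523 and 242, with no overlap. Of the other glucocorticoid-induced genes, Ptgds (1.88 ± 0.38), a prostaglandin D synthase, the cell cycle inhibitor Cdkn1a (1.33 ± 0.29) and Ddit4 (1.02 ± 0.22), an inhibitor of mTORC1, rose, and Pik3r1 (-0.43 ± 0.13), a regulatory subunit of PI3-kinase, fell. Map3k6 did not pass, at 0.11 ± 0.12 with a limma adjusted p of 0.643 and overlapping groups. Anxa1 (0.23 ± 0.07, limma adjusted p = 0.0675) did not pass either, though every Ovx + AngII library was above every Ovx library. Fkbp4 (-0.33 ± 0.11, adjusted p = 0.0665) also did not pass, with every Ovx + AngII library below every Ovx library.

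Among the other lists, Abcb1b (0.53 ± 0.13), the coactivator subunit Med1 (0.30 ± 0.08), the endothelin gene Edn1 (1.46 ± 0.35) and Fkbp1a (0.32 ± 0.06), which encodes the binding protein of rapamycin, rose. The clock repressor Cry2 fell by 0.66 on the log2 scale. Cry2, Med1 and Pik3r1 did not pass in 6 to 8 of the 16 fits with 1 library left out, with adjusted p up to 0.139, 0.0826 and 0.138, and leaving out Ovx replicate 3 or 4 or Ovx + AngII replicate 1 or 3 was enough to end each of these calls. The other list genes named here as passing in this comparison did so in all 16 fits.

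**Figure D3:**
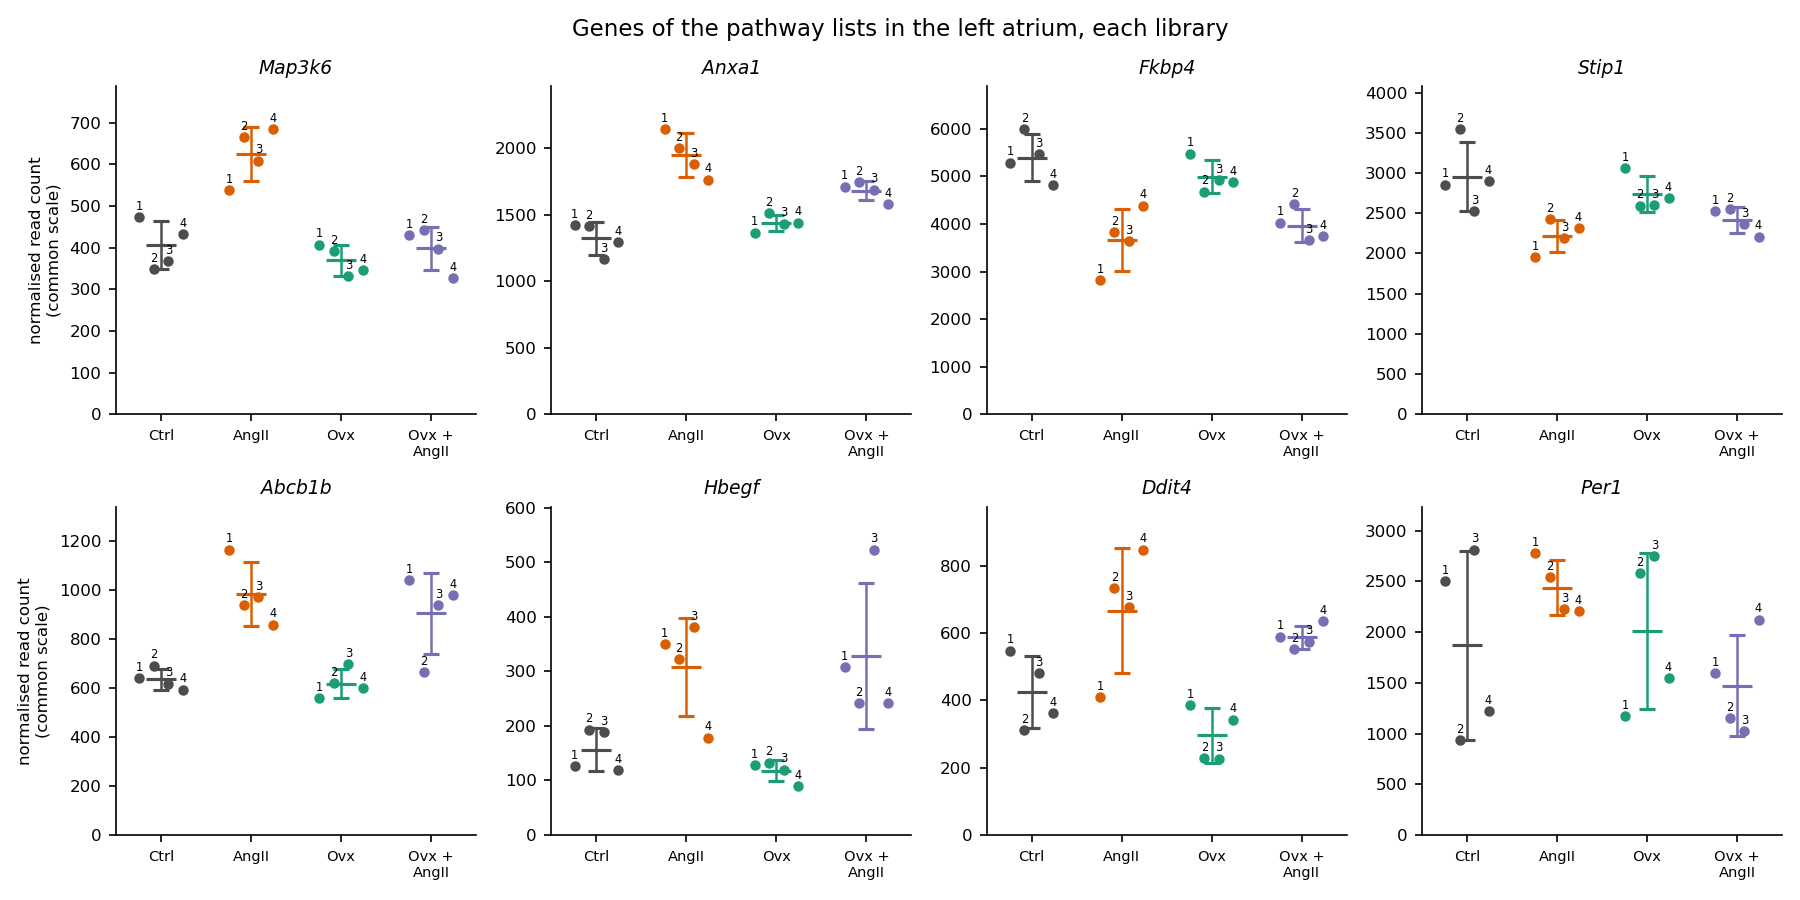
Normalised read counts on the common scale (y axis, from 0) of 8 genes from the pathway lists in each library, with points numbered by replicate and the mean ± SD of 4 libraries. AngII libraries of Map3k6 (539 to 685) lie above all other libraries, and Fkbp4 lies between 2817 and 4418 in both AngII groups and between 4679 and 5999 in the others. Per1 falls into separate pairs of libraries within the Ctrl and Ovx groups.

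Ovx against control is the contrast that the rule used, so its values are a description without a test. Mt2, Fam107a and Fkbp5 had the lowest differences, at -0.58 ± 0.32, -0.52 ± 0.29 and -0.42 ± 0.20 on the log2 scale. Sgk1, Mt1 and Zbtb16 lay between -0.25 and -0.21, Tsc22d3, Errfi1 and Klf9 between -0.01 and 0.04, and Nr3c1 at 0.11. All 10 groups overlapped, and 2.24% of all genes had every Ovx library below every control library. No gene in the table passed the adjusted p in this contrast on the common scale (0%). On the deposited scale, where the median of all genes was -0.17, the members' median moved from -0.21 to -0.38. Ctrl replicate 2, the lowest control for Sgk1 and Zbtb16, moved their values to -0.55 and -0.53 when it was left out. Without Ctrl replicate 4, Mt2 was at -0.32, Fam107a at -0.43, Fkbp5 at -0.29, Zbtb16 at -0.09 and Sgk1 at -0.06, and the median of the 10 genes was -0.12.

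Ovx + AngII against AngII compares ovariectomized with intact mice under the same infusion and shares no library with the contrast of the rule. Its AngII libraries are those of the first comparison, so the values of both rest on them. Of the 10 genes, 8 were lower in the ovariectomized mice and the median log2 difference was -0.44, against 0.01 over all genes. None passed the adjusted p in limma, and neither did any other gene (0%). At an unadjusted p under 0.05, 6 of the 10 were lower, where 2.7% of all genes were. In 4 of the 10, every Ovx + AngII library was below every AngII library, against 2.38% of all genes. These 4 were Fkbp5, Fam107a, Mt2 and Klf9, each with the smallest exact permutation p that 4 against 4 libraries allow (0.0286, two-sided, unadjusted, 30 such tests run). Since the genes were selected with earlier results of these libraries known, these counts are no independent evidence of the direction. Of the marker lists, all 5 macrophage markers (median log2 difference -0.43), all 5 erythroid markers (-1.55) and the 2 neutrophil markers tested (-1.08) were also below 0 in this contrast, none past the adjusted p. All 5 epicardial and mesothelial markers (-0.16) were below 0 as well. In the other direction, all 5 T and natural killer lymphocyte markers tested (0.92), all 6 atrial cardiomyocyte markers (0.21) and all 5 smooth muscle and pericyte markers (0.12) were above 0. The summed macrophage level was 12212 to 17634 in AngII and 10309 to 13432 in Ovx + AngII libraries, the erythroid level 16353 to 161764 and 11881 to 18312, and the neutrophil level 24.9 to 94.5 and 17.6 to 30.5. The neutrophil sums are over all 4 markers of that list. No marker of these lists was at 0 in all 16 libraries, and their part in the members' values was not tested.

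Fam107a had 205, 308, 188 and 423 in AngII mice and 149, 95.1, 77.4 and 139.6 in Ovx + AngII mice. The means were 281 ± 108 and 115 ± 34.4 (SD, n = 4). The fitted log2 difference of -1.25 ± 0.29 corresponds to a level 2.38-fold lower after ovariectomy. Its unadjusted p of 0.000503 ranked 15th of 14258 genes and its adjusted p in limma was 0.478. Fkbp5 ranked 14th, with means of 1218 ± 371 and 636 ± 55.6, a log2 difference of -0.89 ± 0.20 and an adjusted p of 0.450. The highest Ovx + AngII library of Fkbp5 (689.8, replicate 2) was just below the lowest AngII library (753, replicate 1). On the deposited scale, which adds the shift of all genes between the sides, both were called. Their limma adjusted p were 0.0395 for Fkbp5 and 0.0397 for Fam107a, where 0.757% of all genes passed and 0.0351% were called.

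Mt2 was lower by a log2 difference of -1.09 ± 0.32 (adjusted p in limma 0.669) and Mt1 by -0.47 ± 0.16. For Mt1 the ranges met at AngII replicate 1 (1706), which was below Ovx + AngII replicate 3 (1838). Klf9 had 2778, 3717, 2763 and 2981 in AngII mice and 2253, 2214, 2015 and 2711 in Ovx + AngII mice, a log2 difference of -0.41 ± 0.15. Its groups were separated by a small gap between 2711 and 2763. Tsc22d3 (-0.49 ± 0.23) was lower with overlap, and Sgk1 (-0.39 ± 0.27) and Zbtb16 (-0.09 ± 0.31) had no p under 0.05. Errfi1 (0.17 ± 0.16) and Nr3c1 (0.01 ± 0.08) were above 0 on the common scale and below 0 on the deposited scale (-0.0019 and -0.16).

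Of the pathway lists, none had a gene past the adjusted p in this contrast. The 28 other glucocorticoid-induced genes had a median log2 difference of -0.23, with 19 below 0. At an unadjusted p under 0.05, 7 of them were lower, against 2.7% of all genes, and 1 was higher, against 3.46%. The higher one was Angptl4, an inhibitor of lipoprotein lipase, at 1.38 ± 0.47, named after its values were seen. Like the members, this list was chosen with earlier results of this contrast known. Its counts are therefore no independent evidence of the members' direction. Map3k6 was the gene of that list with the smallest p, 6.34e-05, which ranked 4th of all 14258 genes, at a log2 difference of -0.65 ± 0.12 and an adjusted p of 0.226. Its Ovx + AngII libraries held 429, 442, 398 and 327. All 4 were below the lowest AngII library.

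The difference between the AngII responses of ovariectomized and intact mice was tested as an interaction. None of the 10 genes passed in limma, nor did any gene of the table (0%), and none of the 10 had an unadjusted p under 0.05, which 5.8% of all genes had in either direction. The values were below 0 for 8 of the 10, with a median of -0.35 against 0.01 over all genes. Klf9 came nearest (-0.45 ± 0.22, unadjusted p = 0.0544, adjusted p = 0.831), followed by Fam107a (-0.73 ± 0.41, adjusted p = 0.841). Fkbp5 was at -0.47 ± 0.28 with an adjusted p of 0.861. Without Ctrl replicate 4, Fkbp5 was at -0.59 ± 0.28, Fam107a at -0.82 ± 0.42 and Sgk1 at -0.33 ± 0.37, the median was -0.33, and none passed (smallest adjusted p in limma 0.715). The 2 AngII comparisons and the 2 Ovx comparisons all share libraries with this test. A smaller response of these genes to AngII in ovariectomized mice was therefore not shown by the test of the difference itself.

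The 10 genes did not share one profile over the 16 libraries. Likeness was measured as the root mean square difference of log2 profiles, each set to mean 0 and SD 1, among 12371 genes with a mean of at least 50. The gene nearest to Fkbp5 was Map3k6 (0.417), followed by Cyb561 (0.459), an ascorbate-dependent cytochrome, the lysosomal protease gene Ctsa (0.517), the lipocalin gene Apod (0.524) and Ninj1 (0.524), which encodes a protein of plasma membrane rupture. Mt2 and Mt1 came 6th and 7th in that order, Fam107a 19th and Sgk1 298th. Klf9, Tsc22d3, Errfi1 and Zbtb16 were at rank 2336 or beyond, and Nr3c1 was at 11457. These ranks come from all the libraries, the contrast of the rule included, and are a description.

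The nearest gene to Mt2 was its neighbour Mt1 (0.346). It was followed by Lrrc8a (0.459), a subunit of volume-regulated anion channels, the cytoskeletal gene Shroom4 (0.480), the angiotensin-converting enzyme gene Ace (0.492) and Atp6v0c (0.508), a subunit of the vacuolar proton pump. Ace had 2856, 2406, 3796 and 4805 in controls and 5533, 6333, 7186 and 7329.6 after AngII. It passed in both AngII comparisons, at 0.97 ± 0.17 in intact and 1.04 ± 0.17 in ovariectomized mice, while Mt2 passed in neither.

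**Figure D4:**
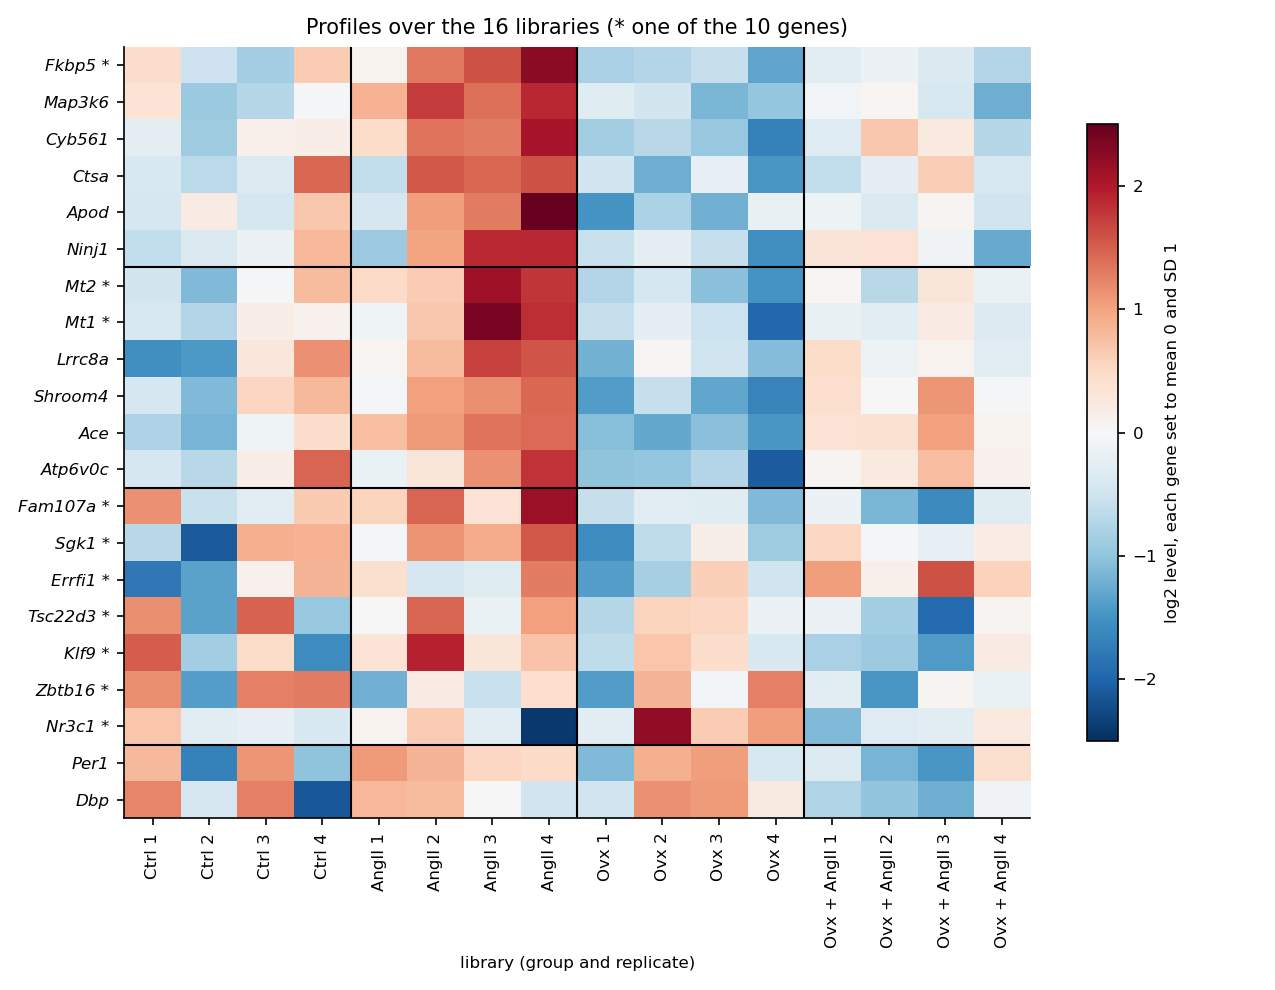
Log2 levels, each gene set to mean 0 and SD 1 over the 16 libraries (colour), of the 10 genes (marked with a star), of the 5 genes nearest to Fkbp5 and to Mt2, and of the clock genes Per1 and Dbp. Rows are genes in blocks separated by lines, columns are libraries by group. Fkbp5, Map3k6, Cyb561 and Apod are highest in AngII replicates 2 to 4, and Mt1 and Mt2 in AngII replicates 3 and 4, whereas Tsc22d3 and Klf9 vary between libraries of one group much as Per1 does.

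Libraries differed in how many of the genes they held at the extremes. AngII replicate 4 was among the 3 highest libraries for 7 of the 10 genes and AngII replicate 2 for 6, while Ctrl replicate 2 was among the 3 lowest for 6. AngII replicate 4 had the highest Fkbp5, Fam107a and Sgk1 and the lowest Nr3c1 (2118) of all libraries. It was also the library with the highest share of haemoglobin counts, whose part in these values was not tested. Without it, the log2 difference of Fkbp5 in AngII against control was 0.56, that of Fam107a 0.36 and that of Mt2 1.0005, and no member passed.

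Tsc22d3 and Klf9 followed a pattern within groups that Fkbp5 shared only in the Ovx group. Tsc22d3 was measured at 3457, 1785, 3751 and 1984 in controls, 2113, 2947, 2923 and 2449.8 in Ovx mice and 2445, 2034, 1524 and 2592 in Ovx + AngII mice. Ctrl replicates 2 and 4, Ovx replicates 1 and 4 and Ovx + AngII replicates 2 and 3 were the lower pair of each group. Klf9 had the same lower pairs, with 2225 and 1959 in controls, 2328 and 2434 in Ovx mice and 2214 and 2015 in Ovx + AngII mice. Fam107a and Sgk1 shared these pairs in the Ovx and Ovx + AngII groups and not in controls. Per1, a clock gene that glucocorticoids also induce, was singled out after its values were seen. It had 2505, 933, 2813 and 1223 in controls, 1173, 2578, 2746 and 1546 in Ovx mice and 1592, 1149.9, 1023 and 2124 in Ovx + AngII mice, and thus the same lower pairs in these 3 groups.

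In the AngII group, Per1 lay between 2205 and 2779 and its order differed from that of Tsc22d3 (2556, 3731, 2433 and 3332). Dbp, an output gene of the clock chosen in the same way, had the same lower pairs again, at 2297 and 885 in controls, 2198 and 3291 in Ovx mice and 1667 and 1458 in Ovx + AngII mice. The 16 clock genes had median log2 differences of 0.16 in AngII against control and -0.51 in both Ovx + AngII against Ovx and Ovx + AngII against AngII, with 12 of 16 below 0 in the last of these. The methods give a daytime window of a few hours for euthanasia and no time of day for each library. The study states that the animals were not killed at one time of day. The part of collection time in the values of Tsc22d3, Klf9 and the other members was not tested.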

How the data were processed

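The deposited values are a signal for each gene: the authors divided read counts by size factors after alignment to mm10 (STAR, Salmon and DESeq2 in BaseSpace, versions not given in the sources used here). The values are not whole numbers: in the low range 76.4% to 90.4% lay within 0.1 of a multiple of the value of 1 read, so whole reads were not recovered and tests for raw counts were not used. Reads assigned to genes, estimated from these steps, numbered 15979571 to 25118656 a library. This is not the sequencing depth, and the study reports more sequenced reads for its atrial libraries. The 14 rows whose symbols had become dates (0.0721% of values) were left out. No library pair shared its values, and 0 sample columns were unused.

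Values were divided by median-of-ratios factors over the 16 libraries and analysed as log2(value + 1), on which scale changes of low genes are understated. Genes with a mean of at least 10 were fitted with limma 3.58.1 in R 4.3.3 (4 group means, mean trend, two-sided, Benjamini-Hochberg over all genes within a comparison). A gene passed when its adjusted p did not exceed 0.05, and was called if its log2 difference was also 1 or more in size. The fit was tested on simulated data. Single values were also compared by exact permutation over 8 libraries.

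The 10 genes and all lists were chosen with earlier results of these data known, in every contrast and not only that of the rule. All 10 genes were named, from each pathway list at most 4 genes past the adjusted p by smallest p, and the 5 genes nearest to Fkbp5 and to Mt2. Per1, Dbp, and values of list genes outside the comparison they passed in, were added after seeing them. Alternatives were 2 other scales, 2 pseudocounts, 2 filters, fits on the compared groups, robust and weighted fits, exact tests and each library left out. Replicate numbers follow the order of deposition. A list gene that met the rule for named genes is counted but not reported here.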

Additional observations from a re-analysis of the deposited data

Results flagged for a closer look

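In the control group, 2 values stood apart from the other 3 libraries by more than Dixon's 95% critical value for 4 samples. Zbtb16 was measured at 1058 in Ctrl replicate 2, against 2509 to 2626 in the other controls, a gap of 0.926 of the range. Nr3c1 was measured at 2703 in Ctrl replicate 1, against 2484 to 2520.3 in the others, a gap of 0.833 of the range. Over the 40 groups examined (10 genes in 4 groups), chance flags about 1 in 20.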

How the results depend on the processing

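No paired analysis was possible because the replicate numbers follow the order of deposition and pair no animals. In AngII against control, Fkbp5, Mt1 and Mt2 passed the adjusted p with array weights, as did 6.89% of all genes. With these weights 1 member (Mt2) was called, against 1.12% of all genes, and between 0 and 1 with 1 library left out. The genes of the pathway lists that passed there numbered 6, against 13 with array weights, 0 in a fit on only the compared groups, and 3 (without Ctrl replicate 1, AngII replicate 1 or AngII replicate 3) to 13 (without Ctrl replicate 4) with 1 library left out. Over all genes, 2.8% passed in the main fit, 0.014% in the fit on only the compared groups and 10.4% without Ctrl replicate 4. In Ovx + AngII against Ovx the list genes that passed numbered 16, against 30 with array weights, 33 with only the compared groups and 12 to 24 with 1 library left out. There 10.2% of all genes passed in the main fit, 20.1% with array weights and 17.5% with only the compared groups. On the deposited scale, 13 list genes passed in Ovx against control, where 9.68% of all genes passed. In Ovx + AngII against AngII, 3 passed on that scale, beside 0.757% of all genes. There 2 members were called, against 0.0351% of all genes, Nr3c1 was at -0.16 and Errfi1 at -0.0019. In the last comparison, 4 members had an exact p of at most 0.05.

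In the tested comparisons, some log2 differences crossed 0 with 1 library left out. They were those of Nr3c1 in AngII against control (-0.0929 to 0.0225) and in Ovx + AngII against AngII (-0.0587 to 0.0567). Fam107a crossed 0 in Ovx + AngII against Ovx (-0.287 to 0.0244), and Zbtb16 in Ovx + AngII against AngII (-0.239 to 0.0748). In the difference between the AngII responses, Sgk1 (-0.34 to 0.16) and Zbtb16 (-0.14 to 0.44) did so. Values in Ovx against control, the contrast without a test, crossed 0 as well. Among them was Klf9, at 0.04 with all libraries and at -0.09 without Ctrl replicate 4. Leaving out Ctrl replicate 4 and AngII replicate 4 together, chosen after seeing the data, gave 1 called member (Mt2) and 16 and 27 passing list genes in the AngII comparisons. Over all genes, 12.4% passed and 2.08% were called in AngII against control, and 15% passed in Ovx + AngII against Ovx. Leaving both out moved Nr3c1 in AngII against control to 0.00960, and Zbtb16 and Nr3c1 in Ovx + AngII against AngII to 0.0263 and -0.0587. The causes were not tested.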
